A study of Mus musculus with 12 samples.

Results

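N-acetylcysteine (NAC) and genipin were each given alone to mouse CD8 T cells, and the 3 libraries of cells that received NAC were compared directly with the 3 libraries of cells that received genipin. These 6 libraries were taken by their treatment label from the 12 of the series, whose other groups were vehicle (culture medium) and both compounds together, with 3 libraries each. The vehicle libraries served to find the genes that both compounds moved alike and that therefore do not separate them. The cells of every group came from pmel-1 mice, a strain with a transgenic receptor for a gp100 peptide of melanoma, and carried the wildtype Ucp2 gene. In every group they had been activated in culture, with the peptide or with antibodies to CD3 and CD28, and expanded with IL-2 at 10 ng/ml for 4 days. The labels do not say which of these activation routes a library had, which dose or duration of each compound was used, or whether the replicates came from separate mice or cultures. The comparison is therefore between 2 treatments as given and not between matched doses, in cells of 1 receptor specificity, and its p-values reflect only how far these libraries vary, which may be technical variation.

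Genipin is a plant iridoid used to inhibit Ucp2, a carrier of the inner mitochondrial membrane, and it can also crosslink proteins through primary amines. NAC is a thiol that enters cells, can be deacetylated to cysteine and so feeds glutathione synthesis, and it is widely used as an antioxidant on T cells in culture. Activated CD8 T cells make granzymes and perforin to kill targets, switch to glycolysis and lipid synthesis to grow, and lose the transcription factor TCF-1 and the lymph node homing receptors of naive and memory cells as they become effectors.

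RNA was measured in estimated read counts per gene, with 20838894 to 27308800 counts in the 6 libraries compared. On the first principal component, which held 59.6% of the variance over all 12 libraries, the genipin libraries lay at one end, the NAC libraries at the other and the vehicle libraries between them. Replicate 1 of the group with both compounds stood apart from its group (chi-square over genes of 7.01 and 8.13 per degree of freedom against the other 2 libraries, which gave 2.08 between themselves), and it is part of the model shared by all 12 libraries and of the combination group described at the end. All 12 CD8 T cell marker genes were measured, and their summed level was 6732 to 6911 CPM (counts scaled to library size) with genipin and 6117 to 6161 CPM with NAC. Single markers went both ways, 4 higher with NAC and 7 higher with genipin at the threshold used below. Cd8a was at 397, 392 and 390 CPM with genipin and 807, 807 and 836 CPM with NAC. Cd3e was at 317, 321 and 329 CPM with genipin and 228, 242 and 231 CPM with NAC. Erythroid, stromal, macrophage and neutrophil markers together were near 0 in both groups, with macrophage markers highest at 3.04 to 3.36 CPM with genipin. The 4 markers of CD4 and regulatory T cells summed to 71.2 to 74.0 CPM with genipin and 89.2 to 93.9 CPM with NAC. Cd4 itself was at 0.155, 0.625 and 0.292 CPM with genipin and 5.06, 5.02 and 5.25 CPM with NAC, and Zbtb7b was also higher with NAC. Ikzf4 ran the other way, at 32.5, 31.8 and 33.5 CPM with genipin and 24.4, 24.0 and 26.6 CPM with NAC. Foxp3 had at most 6 counts in a library. The 4 gamma delta T cell markers summed to 43.5 to 46.3 CPM with genipin and 51.8 to 56.3 CPM with NAC. They did not move together, and their median log2 difference, NAC minus genipin, was -0.14. Trdc was higher with NAC, at 8.89, 9.02 and 7.69 CPM with genipin and 18.7, 19.6 and 18.3 CPM with NAC. Tcrg-C1 was higher with genipin, at 6.69, 7.1 and 8.46 CPM with genipin and 5.38, 6.04 and 6.47 CPM with NAC. Tcrg-C2 and Sox13 did not differ at the threshold used below. The part of such cells in the results was not tested. In total RNA of a culture, fewer cells of a type and less RNA per cell cannot be told apart.

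In the direct comparison, 9786 of 13636 genes tested had a Benjamini-Hochberg adjusted p under 0.05 in the edgeR quasi-likelihood test, which is 71.8% of them. Of these, 4985 genes (36.6%) were higher with NAC and 4801 genes (35.2%) were higher with genipin. Most differences were small: the median absolute log2 difference was 0.40 over all genes tested and 0.53 over the called genes, beside a median standard error (SE) of 0.07. With a difference of at least 2-fold as well, 2539 genes (18.6%) passed, 1600 of them higher with NAC (11.7%) and 939 higher with genipin (6.89%), so the larger differences lay more often on the NAC side. At 4-fold or more there were 668 genes higher with NAC and 294 higher with genipin. Over all calls, the counts were 5159 and 4969 without replicate 1 of the group with both compounds. They were 2976 and 2798 with offsets for the deposited effective lengths. Those offsets took the place of the scaling to library size, so the fall cannot be put down to effective length. Because 71.8% of all genes were called, the counts of gene groups given here are read beside that share and beside the all-gene median difference of 0.0073. The 3 libraries of NAC and the 3 of genipin did not overlap in 10247 genes (75.1%). All differences given in parentheses are log2 differences, NAC minus genipin, ± SE with n = 3 libraries per group, so that positive values are higher with NAC.

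**Figure D1:**
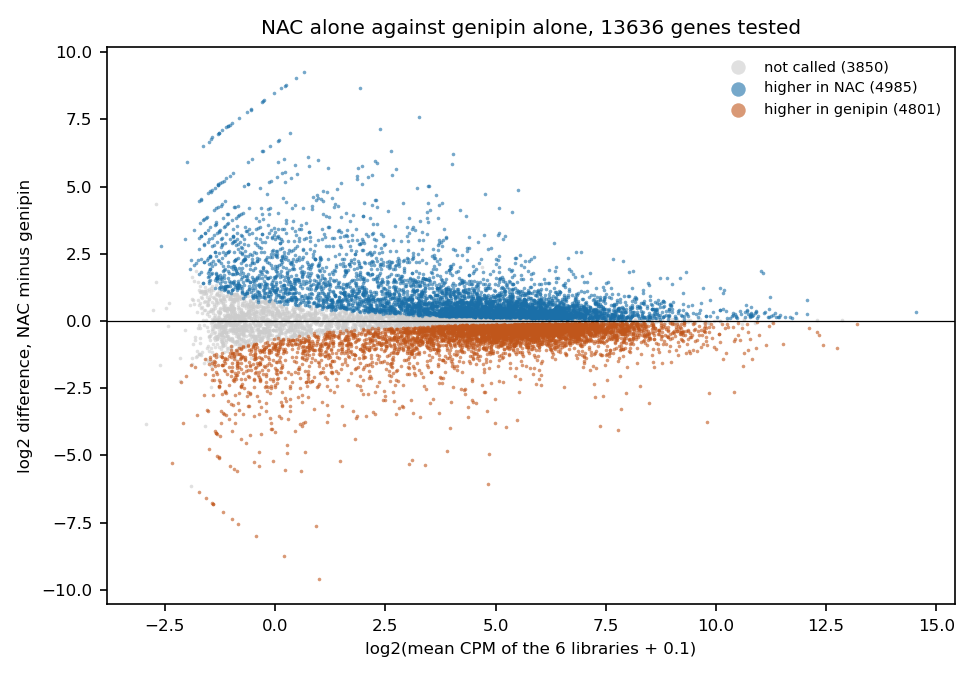
Each point is 1 of the 13636 genes tested, with the log2 of its mean CPM over the 6 libraries plus 0.1 on the x axis and the log2 difference, NAC minus genipin, on the y axis. Blue points (4985) were called higher with NAC, orange points (4801) higher with genipin and grey points (3850) were not called, and blue points reach farther from the zero line than orange ones at most levels.

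Among well measured genes, the largest differences towards NAC included signalling, adhesion and immune genes. Adcy6, an adenylyl cyclase that makes cyclic AMP (ENSMUSG00000022994.9, chromosome 15, 98589973 to 98610076, mm10), stood at 0.387, 0.402 and 0.510 CPM with genipin and 33.9, 31.5 and 31.4 CPM with NAC. The libraries with genipin were near the detection limit while the vehicle mean was 9.03 CPM, and the difference was 6.19 ± 0.21. The transglutaminase gene Tgm2 was at 0.232, 0 and 0.0365 CPM with genipin and 19.3, 18.7 and 18.8 CPM with NAC (7.60 ± 0.55), and complement C3 differed by 7.14 ± 0.61. Both averaged under 3 counts per library with genipin, so the size of these 2 differences is uncertain. The sialyltransferase gene St6gal1 (5.67 ± 0.37), the phospholipase family gene Pld4 (5.42 ± 0.31), the proteoglycan gene Spock2 (5.04 ± 0.21) and the neutral amino acid transporter gene Slc6a19 (6.32 ± 0.39) were other members of the 15 largest.

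The largest differences towards genipin included granule, chemokine and receptor genes. Nrgn, a neuronal calmodulin-binding protein (ENSMUSG00000053310.11, chromosome 9, 37544492 to 37552904, mm10), was at 52.6, 55.5 and 57.9 CPM with genipin and 1.98, 1.81 and 1.64 CPM with NAC, with a vehicle mean of 4.60 CPM (-4.94 ± 0.12). Csf1, the macrophage growth factor, was at 17.1, 15.1 and 17.8 CPM with genipin and 0.414, 0.491 and 0.457 CPM with NAC (-5.17 ± 0.28), and vehicle lay between them at 2.56 CPM. For both genes every genipin library was above, and every NAC library below, the 3 vehicle libraries. The desmosomal cadherin gene Dsc2 (-6.08 ± 0.20), the signalling adaptor gene Sh2d1b1 (-4.84 ± 0.18), the semaphorin gene Sema6d (-3.99 ± 0.13) and the basophil protease gene Mcpt8 (-5.33 ± 0.28) were also among the 15 largest. Of 9 mast cell and basophil markers 4 were tested; Mcpt8 and Cpa3 (-1.74 ± 0.12) were higher with genipin, Kit (0.68 ± 0.04) higher with NAC, and Mcpt4 and Ms4a2 had no count in any of the 6 libraries.

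**Figure D2:**
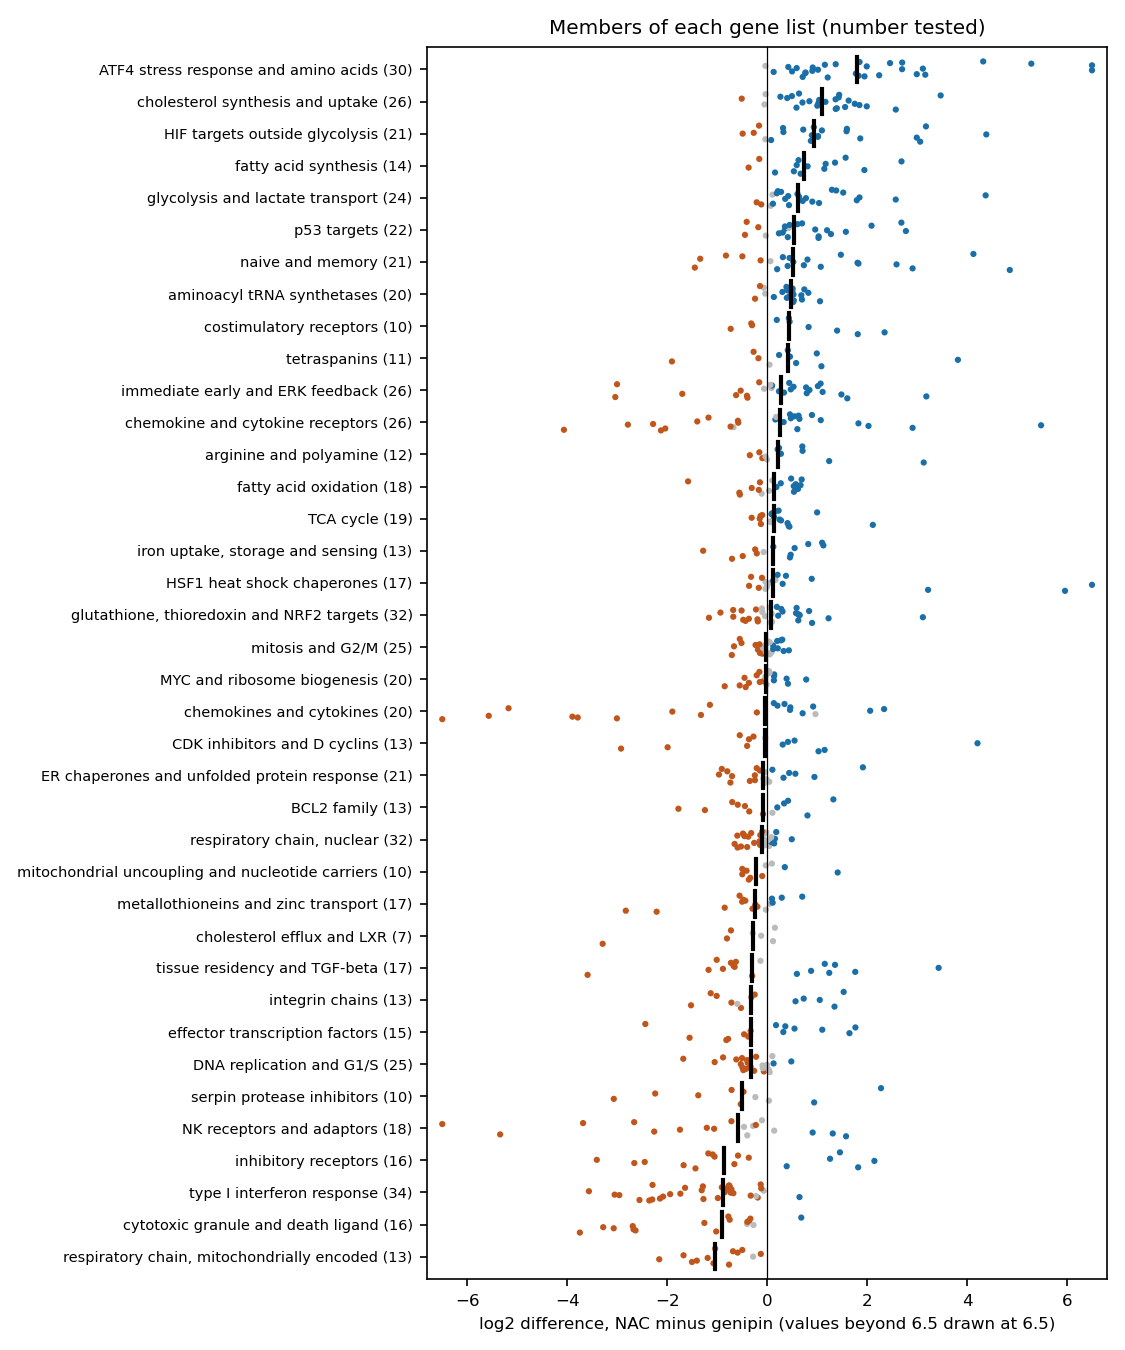
Each point is 1 tested gene of the list named at the left, with the number tested in brackets, at its log2 difference, NAC minus genipin; blue is called higher with NAC, orange higher with genipin, grey not called, and the black bar is the list median. The lists run from the ATF4 and amino acid genes, with a median of 1.80, to the mitochondrially encoded respiratory genes, with a median of -1.04.

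Genes induced through ATF4, the transcription factor of the amino acid and integrated stress response, stood on the NAC side. Of 30 tested, 29 were higher with NAC, 20 of them by at least 2-fold, and the list median was 1.80. The remaining gene, Sesn2, an inhibitor of mTORC1 signalling, was not called (-0.03 ± 0.05). Trib3, a pseudokinase that feeds back on ATF4 (ENSMUSG00000032715.9, chromosome 2, 152337422 to 152344032, mm10), was at 7.08, 7.10 and 7.95 CPM with genipin and 66.4, 68.8 and 63.7 CPM with NAC, against 19.98, 19.2 and 20.9 CPM with vehicle. All NAC libraries were above and all genipin libraries below the vehicle libraries, and the difference between the compounds was 8.96-fold (3.16 ± 0.07, adjusted p = 3.4e-20 by the edgeR quasi-likelihood test, Benjamini-Hochberg adjusted). Asns, the asparagine synthetase (ENSMUSG00000029752.12, chromosome 6, 7675169 to 7693254, mm10), was at 63.6, 61.7 and 65.3 CPM with genipin and 218, 215 and 219 CPM with NAC, with vehicle between them at 130.4, 130.0 and 124 CPM (1.78 ± 0.03). Ddit4, an inhibitor of mTORC1 (ENSMUSG00000020108.4, chromosome 10, 59949669 to 59951834, mm10), followed the same order, with 78.7, 82.2 and 88.4 CPM with genipin and 395, 397 and 388 CPM with NAC and 242, 237 and 233 CPM with vehicle (2.24 ± 0.04). The levels of these genes therefore ran from genipin through vehicle to NAC with no overlap between the 3 groups.

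The members that handle cysteine and glutathione were part of this group. Chac1, which degrades glutathione, was at 2.59, 3.48 and 2.698 CPM with genipin and 24.6, 24.1 and 20.8 CPM with NAC (2.99 ± 0.12). Cth, the cystathionine gamma-lyase that makes cysteine, was at 0.503, 0.134 and 0.584 CPM with genipin and 7.96, 9.37 and 8.22 CPM with NAC (4.32 ± 0.32), and Slc7a11, the cystine importer, was at 0.116, 0.134 and 0.219 CPM with genipin and 1.43, 1.44 and 1.37 CPM with NAC (3.12 ± 0.48). All 3 were higher in each NAC library than in any genipin library, although Cth and Slc7a11 were near the detection limit with genipin. The proline synthesis genes Pycr1 (2.7 ± 0.08) and Aldh18a1 (1.02 ± 0.03), the alanine aminotransferase gene Gpt2 (2.7 ± 0.10) and the mitochondrial carboxykinase gene Pck2 (1.85 ± 0.06) were higher with NAC. So were the transcription factor genes Ddit3 (1.83 ± 0.07), Atf5 (1.95 ± 0.09), Cebpg (1.37 ± 0.06) and Atf4 itself (0.71 ± 0.03). Serine synthesis genes differed less, with Phgdh at 0.77 ± 0.04 and Psat1 at 0.77 ± 0.03, and among transporters Slc7a5 (0.59 ± 0.04) and Slc3a2 (0.91 ± 0.03), the chains of the large neutral amino acid carrier, were higher with NAC.

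Of 20 aminoacyl tRNA synthetases, which load amino acids onto tRNA, 16 were higher with NAC and 2 with genipin, with a median of 0.47. The cysteinyl enzyme Cars (1.06 ± 0.05) had the largest difference, followed by the seryl enzyme Sars (0.82 ± 0.03) and the tyrosyl enzyme Yars (0.74 ± 0.03). The glutaminyl enzyme Qars (-0.14 ± 0.03) and the histidyl enzyme Hars (-0.24 ± 0.04) were the 2 higher with genipin.

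Promoters of the ATF4 list were read for the composite element that ATF4 and C/EBP proteins bind, with the letters TGATGNAA on either strand, in the 250 bases before the RefSeq start sites on GRCm38.p6. This motif was chosen after the list's differences were known. It was present for 8 of 27 listed genes with a window (29.6%), for 2.37% of the 9848 tested genes with a window and in 3.45% of all windows. A match describes letters and is not evidence of binding. The windows of Pycr1 (chr11:120643749-120643998, minus strand), Pck2 (chr14:55540016-55540265, plus strand), Chac1 (chr2:119350992-119351241, plus strand) and Slc7a11 (chr3:50443614-50443863, minus strand) are shown as those of the listed genes named here that hold the motif. Asns holds it too but is not shown, because the motif lies inside the gene span of the files' annotation. They read 5′ to 3′ along the gene's strand, and capitals mark the motif or its reverse complement.
Pycr1: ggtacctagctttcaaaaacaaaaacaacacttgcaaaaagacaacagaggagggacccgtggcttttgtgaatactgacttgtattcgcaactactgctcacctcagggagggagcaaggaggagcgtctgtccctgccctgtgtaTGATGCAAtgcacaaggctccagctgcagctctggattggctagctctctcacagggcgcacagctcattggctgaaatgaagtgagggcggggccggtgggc
Pck2: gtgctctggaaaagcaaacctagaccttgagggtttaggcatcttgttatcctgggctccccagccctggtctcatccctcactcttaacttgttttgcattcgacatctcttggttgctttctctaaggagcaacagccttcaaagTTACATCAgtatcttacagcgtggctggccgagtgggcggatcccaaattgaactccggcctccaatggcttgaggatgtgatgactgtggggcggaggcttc
Chac1: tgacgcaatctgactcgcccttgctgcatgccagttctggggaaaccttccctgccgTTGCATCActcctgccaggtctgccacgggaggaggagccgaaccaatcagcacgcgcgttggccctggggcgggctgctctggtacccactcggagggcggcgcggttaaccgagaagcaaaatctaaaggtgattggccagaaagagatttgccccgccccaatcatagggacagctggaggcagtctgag
Slc7a11: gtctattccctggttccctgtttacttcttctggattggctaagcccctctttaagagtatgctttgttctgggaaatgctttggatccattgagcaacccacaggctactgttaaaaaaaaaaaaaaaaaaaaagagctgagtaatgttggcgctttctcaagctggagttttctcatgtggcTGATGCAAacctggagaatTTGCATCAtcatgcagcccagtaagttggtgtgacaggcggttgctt
The motif began 103 bases before the start site in both Pycr1 and Pck2 and 193 bases before it in Chac1. Slc7a11 held 2 matches, at 66 and 47 bases before the start. The RefSeq starts of Chac1 and Slc7a11 match no transcript start of the GENCODE annotation, and the ends of the Pycr1, Chac1 and Slc7a11 windows reach into the gene spans of the files' annotation. Most listed genes named here held no match in their windows: Trib3, Ddit4, Aldh18a1, Gpt2, Ddit3, Atf5, Cebpg, Atf4, Phgdh, Psat1 and Slc3a2.

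Lipid synthesis genes were higher with NAC than with genipin. Of 26 genes of cholesterol synthesis and uptake 23 were higher with NAC, 16 by at least 2-fold, 1 was higher with genipin, and the median was 1.10. Acat2, which joins acetyl-CoA units at the entry to the sterol pathway (ENSMUSG00000023832.14, chromosome 17, 12942890 to 12960747, mm10), was at 31.8, 33.0 and 32.3 CPM with genipin and 190.3, 194 and 194 CPM with NAC, with 145, 141 and 143 CPM with vehicle (2.57 ± 0.04). Fdps, the farnesyl diphosphate synthase (ENSMUSG00000059743.12, chromosome 3, 89093588 to 89101959, mm10), was at 123, 122 and 118 CPM with genipin and 439, 435 and 432 CPM with NAC, beside 409.9, 419 and 416 CPM with vehicle (1.85 ± 0.03). In Acat2 the vehicle libraries lay between the compounds, and in Fdps they lay just under the NAC libraries. The mevalonate genes Mvd (1.99 ± 0.05), Pmvk (1.56 ± 0.05) and Hmgcs1 (1.37 ± 0.03), the squalene synthase gene Fdft1 (1.75 ± 0.04) and the sterol sensor gene Insig1 (1.44 ± 0.03) also differed by more than 2-fold. The sterol isomerase gene Ebp (-0.51 ± 0.05) was the 1 higher with genipin. Srebf2, which encodes the transcription factor of the pathway, was not called (-0.03 ± 0.04, 95% interval -0.11 to 0.05). The sterol regulatory element, TCACNCCAC on either strand, was in the promoter windows of 1 of 18 genes of this list with a window (5.56%). Of tested genes with a window, 1.22% held it. Of 7 genes of cholesterol efflux and its LXR receptors 3 were higher with genipin, led by the exporter gene Abca1, at 2.94, 3.17 and 3.43 CPM with genipin and 0.0920, 0.378 and 0.457 CPM with NAC (-3.29 ± 0.36). Its level was low in all 6 libraries, and the related exporter gene Abcg1 was not called (0.12 ± 0.09).

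Of 14 fatty acid synthesis genes 12 were higher with NAC and 2 with genipin, with a median of 0.74. The stearoyl-CoA desaturase gene Scd1 was at 41.0, 42.2 and 42.9 CPM with genipin and 165, 166 and 155 CPM with NAC (1.95 ± 0.04) and its paralog Scd2 differed by 1.14 ± 0.02. The acyl-CoA synthetase gene Acsl3 (2.69 ± 0.10), the desaturase genes Fads2 (1.36 ± 0.04) and Fads1 (1.17 ± 0.06) and the mitochondrial citrate carrier gene Slc25a1 (1.41 ± 0.04), which supplies cytosolic acetyl-CoA, were higher with NAC. The fatty acid synthase gene Fasn (0.54 ± 0.04) and the citrate lyase gene Acly (0.67 ± 0.03) differed by less. Fatty acid oxidation genes were divided, with 9 of 18 higher with NAC and 6 with genipin. The electron transfer gene Etfb, at 100.5, 96.4 and 97.7 CPM with genipin and 30.4, 35.1 and 32.7 CPM with NAC, was lower with NAC (-1.58 ± 0.05), as was the carnitine palmitoyltransferase gene Cpt1a (-0.55 ± 0.03), while Acads (0.62 ± 0.04) and Hadh (0.53 ± 0.04), enzymes of short chains, were higher.

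Glycolysis genes and targets of the hypoxia-inducible factor (HIF) were higher with NAC as well. Of 24 genes of glycolysis and lactate transport 20 were higher with NAC and 2 with genipin, with a median of 0.62. Pgk1, the phosphoglycerate kinase (ENSMUSG00000062070.12, chromosome X, 106187100 to 106203699, mm10), was at 910.2, 908 and 911 CPM with genipin and 3246, 3268 and 3310.0 CPM with NAC, beside 3420.0, 3443 and 3553 CPM with vehicle (1.85 ± 0.02). The genipin libraries stood alone at the low end, and those of NAC lay slightly under vehicle. The aldolase genes Aldoc (2.57 ± 0.05) and Aldoa (1.79 ± 0.04), the regulatory kinase gene Pfkfb3 (1.38 ± 0.04), the glucose phosphate isomerase gene Gpi1 (1.04 ± 0.03) and Gapdh (0.78 ± 0.03) followed. Some steps differed little: the hexokinase genes Hk2 (0.12 ± 0.04) and Hk1 (-0.12 ± 0.03), the lactate dehydrogenase gene Ldha (0.19 ± 0.03) and the lactate exporter gene Slc16a3 (0.21 ± 0.04) were close to zero, and the glucose transporter gene Slc2a1 was not called (0.07 ± 0.04).

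Outside glycolysis, 17 of 21 HIF targets were higher with NAC and 3 with genipin, with a median of 0.93. Vegfa, the vascular growth factor (ENSMUSG00000023951.17, chromosome 17, 46016993 to 46032369, mm10), was at 8.16, 7.81 and 7.04 CPM with genipin and 66.1, 65.5 and 60.5 CPM with NAC, with 42.5, 41.2 and 42.0 CPM with vehicle (3.06 ± 0.06). P4ha2, a collagen prolyl hydroxylase subunit, was at 1.12, 1.12 and 1.46 CPM with genipin and 25.8, 26.3 and 26.0 CPM with NAC (4.38 ± 0.13). In both genes the 3 groups did not overlap and vehicle lay between the compounds. The carbonic anhydrase gene Car9 (3.18 ± 0.21), the mitochondrial protein gene Mgarp (2.99 ± 0.14), the oxygen-sensing hydroxylase gene Egln3 (1.86 ± 0.04), the pyruvate dehydrogenase kinase gene Pdk1 (1.10 ± 0.04) and the mitophagy receptor gene Bnip3 (0.87 ± 0.04) were higher with NAC. The hydroxylase gene Egln1 was not called (-0.04 ± 0.04). The hypoxia response core, ACGTG or GCGTG on either strand, was in the promoter windows of all 17 HIF targets with a window and of 20 of 23 glycolysis genes (87.0%), beside 61.3% of tested genes, so most tested genes hold it.

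**Figure D3:**
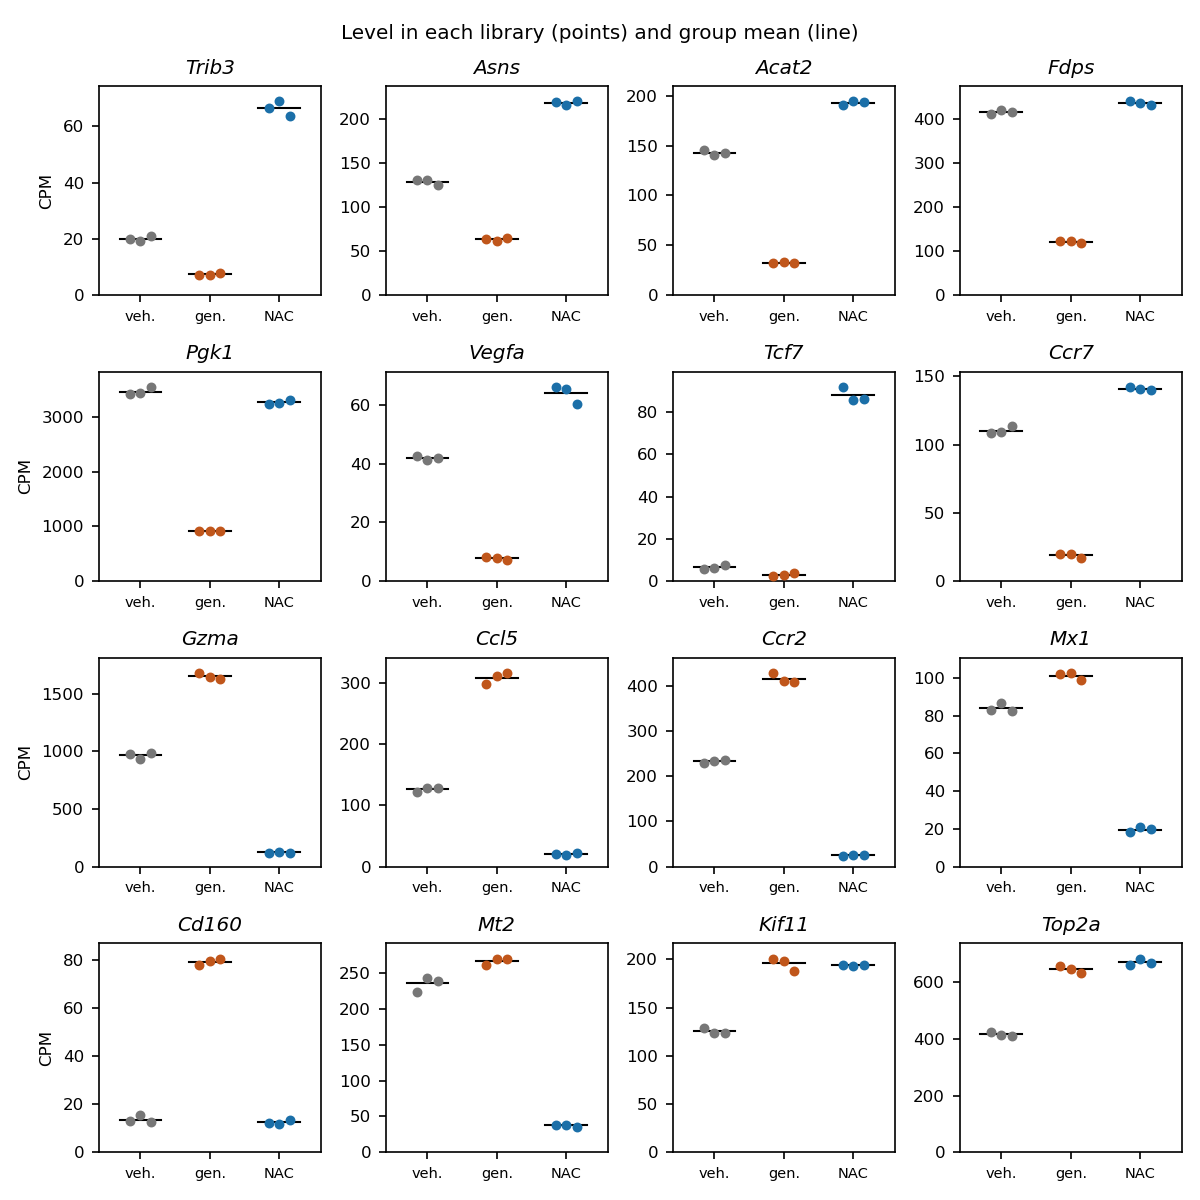
Points are the CPM of single libraries and lines the group means for vehicle, genipin and NAC, with a linear axis from 0 in each panel, for 16 genes named in the text. In 14 panels the NAC and genipin points lie far apart, while in the Kif11 and Top2a panels both compounds stand near one level, above vehicle.

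Cytotoxic effector genes were higher with genipin. Of 16 granule and death ligand genes 13 were higher with genipin, 8 by at least 2-fold, 1 was higher with NAC, and the median was -0.90. Gzma, a granzyme (ENSMUSG00000023132.8, chromosome 13, 113093825 to 113100981, mm10), was at 1678, 1644 and 1627 CPM with genipin and 122, 125 and 122 CPM with NAC, beside 978, 936 and 981 CPM with vehicle. Genipin libraries lay above vehicle and NAC libraries far below, a difference of 13.4-fold (-3.75 ± 0.03, adjusted p = 5.36e-26 by the edgeR quasi-likelihood test, Benjamini-Hochberg adjusted). Gzmb, the most abundant granzyme gene, was at 9223, 9199 and 9186 CPM with genipin and 4546, 4516 and 4564 CPM with NAC (-1.02 ± 0.02), and per transcript length its levels were 9017, 8948 and 8905 TPM with genipin and 4619, 4592 and 4695 TPM with NAC. Perforin (Prf1), which forms the pores through which granzymes enter, was at 792, 792 and 798 CPM with genipin and 343, 326 and 329 CPM with NAC (-1.26 ± 0.03). Gzmc (-2.63 ± 0.02), Gzmd (-2.67 ± 0.03), Gzme (-3.07 ± 0.03), Gzmf (-3.28 ± 0.03) and Gzmg (-2.69 ± 0.03) lie next to each other on chromosome 14 and are close in sequence, so reads shared among them make their single values uncertain. Fasl, the death ligand of the Fas receptor, was the 1 member higher with NAC, at 51.9, 54.4 and 48.1 CPM with genipin and 78.9, 86.5 and 81.9 CPM with NAC (0.68 ± 0.06), and Nkg7 (-0.36 ± 0.03) and the granule proteoglycan gene Srgn (-0.40 ± 0.02) differed little. Among the protease inhibitors that can protect killer cells, Serpinb9b (-3.07 ± 0.09) and Serpina3g (-2.24 ± 0.06) were higher with genipin, Serpinb6b (0.94 ± 0.03) was higher with NAC and Serpinb9 was not called (0.04 ± 0.04).

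Chemokine genes and their receptors separated the compounds in both directions. Of 20 chemokine and cytokine genes 10 were higher with genipin and 9 with NAC, with a median of -0.04. The inflammatory chemokine genes Ccl5, at 298, 311 and 316 CPM with genipin and 20.8, 19.7 and 21.6 CPM with NAC (-3.90 ± 0.04), and Ccl4, at 58.4, 55.5 and 61.8 CPM with genipin and 4.51, 4.27 and 3.96 CPM with NAC (-3.79 ± 0.09), were higher with genipin, as was their relative Ccl3 (-3.01 ± 0.12). Ccl1 had no count in the NAC libraries and was at least 10.6-fold higher with genipin, taking 3 counts per library as the limit. The immunoregulatory cytokine gene Il10 (-1.90 ± 0.11) and the osteopontin gene Spp1 (-1.15 ± 0.03) were also higher with genipin. The cytokine genes on the NAC side were Lif, at 30.7, 33.5 and 34.8 CPM with genipin and 168, 168 and 165 CPM with NAC (2.34 ± 0.04), Lta (0.92 ± 0.06), Ifng (0.71 ± 0.04) and Csf2 (0.46 ± 0.10).

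Of 26 receptor genes for chemokines and cytokines 14 were higher with NAC and 10 with genipin. Ccr2, the receptor of the monocyte chemokine CCL2 (ENSMUSG00000049103.14, chromosome 9, 124101950 to 124113557, mm10), was at 428, 409.9 and 409 CPM with genipin and 23.9, 25.01 and 25.4 CPM with NAC, with vehicle between them at 230.2, 234 and 236 CPM (-4.07 ± 0.04). Ccr7, which guides T cells to lymph nodes (ENSMUSG00000037944.8, chromosome 11, 99144196 to 99155077, mm10), ran the other way, at 19.7, 19.7 and 17.0 CPM with genipin and 142, 141 and 140.4 CPM with NAC and 109, 109 and 113 CPM with vehicle (2.91 ± 0.06). In Ccr2 the NAC libraries were lowest and in Ccr7 the genipin libraries were, with no overlap. With genipin the inflammatory homing receptor genes Cxcr6 (-2.79 ± 0.05), Ccr1 (-2.12 ± 0.08) and Cxcr3 (-0.73 ± 0.07) and the IL-2 receptor beta chain gene Il2rb (-1.40 ± 0.03) were higher. With NAC the receptors for egress and retention S1pr1 (1.83 ± 0.06) and Cxcr4 (2.03 ± 0.08), the IL-7 receptor gene Il7r (1.07 ± 0.04) and the IL-4 receptor gene Il4ra (0.90 ± 0.03) were higher.

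Genes of naive and memory T cells were mostly on the NAC side: 15 of 21 were higher with NAC, 5 with genipin, and the median was 0.52. The difference was at least 2-fold for 8 of those higher with NAC and for 2 of those higher with genipin. Tcf7, which encodes TCF-1 (ENSMUSG00000000782.15, chromosome 11, 52252371 to 52283014, mm10), was at 2.51, 2.99 and 3.57 CPM with genipin and 91.9, 86.0 and 86.4 CPM with NAC, beside 5.87, 6.34 and 7.61 CPM with vehicle. Its genipin libraries lay below vehicle and its NAC libraries far above, 28.9-fold apart (4.86 ± 0.11). Nsg2, a vesicle protein found in naive T cells, was at 1.16, 1.12 and 1.35 CPM with genipin and 22.7, 20.7 and 20.6 CPM with NAC (4.13 ± 0.15), with a vehicle mean of 1.52 CPM close to that of genipin. The transcription factor genes Id3 (1.81 ± 0.24), Bcl6 (1.48 ± 0.18), Klf2 (0.74 ± 0.10), Foxo1 (0.52 ± 0.05) and Bach2 (0.41 ± 0.06) and the survival gene Bcl2 (0.81 ± 0.03) were higher with NAC. Those higher with genipin included Eomes, a T-box factor of memory and effector cells, at 110.2, 112 and 111 CPM with genipin and 44.3, 44.1 and 43.4 CPM with NAC (-1.34 ± 0.04), with Txk (-0.82 ± 0.05), Slamf6 (-0.50 ± 0.14) and Satb1 (-0.13 ± 0.03).

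Effector transcription factors were divided, 8 of 15 higher with genipin and 7 with NAC. Id2, which restrains E proteins, was at 437, 439 and 448 CPM with genipin and 151, 151 and 149 CPM with NAC (-1.55 ± 0.03), and Tbx21 (-0.82 ± 0.06) and Prdm1 (-0.78 ± 0.04), which encode T-bet and Blimp-1, were higher with genipin too. Batf3 (1.65 ± 0.07), Nfil3 (1.10 ± 0.04), Bhlhe40 (0.55 ± 0.03) and Irf4 (0.32 ± 0.03) were higher with NAC.

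Surface receptors that brake T cells and those that costimulate them separated the compounds. Of 16 inhibitory receptor genes 11 were higher with genipin, 8 by at least 2-fold, and 5 with NAC, 4 by at least 2-fold, with a median of -0.85. Cd160 was at 78.2, 79.6 and 80.7 CPM with genipin and 12.2, 12.01 and 13.5 CPM with NAC, against 12.9, 15.6 and 12.5 CPM with vehicle (-2.66 ± 0.07). Its genipin libraries alone stood high, and those of NAC overlapped vehicle. The SLAM family receptor gene Cd244a, at 159, 163 and 151 CPM with genipin and 29.0, 29.1 and 28.6 CPM with NAC (-2.45 ± 0.04), the terminal effector marker gene Klrg1, at 16.2, 15.9 and 15.1 CPM with genipin and 1.29, 1.96 and 1.14 CPM with NAC (-3.41 ± 0.16), Havcr2, which encodes TIM-3 (-1.67 ± 0.04), and Cd96 (-1.18 ± 0.03) were also higher with genipin. Ctla4, a competitor of CD28 for its ligands, ran the other way, at 112, 119.7 and 113 CPM with genipin and 397, 417 and 406 CPM with NAC (1.82 ± 0.04), together with Btla (2.15 ± 0.16). Of 10 costimulatory receptor genes 7 were higher with NAC and 3 with genipin. Tnfrsf9, which encodes 4-1BB, was at 281, 285 and 284 CPM with genipin and 993, 1003 and 991 CPM with NAC (1.81 ± 0.03), and Tnfrsf4, which encodes OX40, at 13.7, 15.6 and 14 CPM with genipin and 73.5, 73.0 and 73.6 CPM with NAC (2.35 ± 0.07). Tnfrsf18 (1.40 ± 0.04), which encodes GITR, was higher with NAC, whereas Cd28 (-0.32 ± 0.04), Icos (-0.30 ± 0.03) and the TNF receptor gene Tnfrsf1b (-0.73 ± 0.04) were higher with genipin.

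Receptors and adaptors shared with natural killer (NK) cells were mostly higher with genipin: 10 of 18 were, 3 were higher with NAC, and the median was -0.59. The adaptor gene Fcer1g was at 77.1, 82.2 and 88.2 CPM with genipin and 6.67, 6.57 and 6.05 CPM with NAC (-3.68 ± 0.07) and its partner Tyrobp differed by -2.66 ± 0.20. Klra5, a receptor of the Ly49 family, was at 20.4, 20.5 and 20.1 CPM with genipin and 0.414, 0.415 and 0.647 CPM with NAC (-5.34 ± 0.21), and another family member, Klra7 (0.91 ± 0.18), was higher with NAC. Ly49 genes are close copies, so their single values are uncertain. Ncr1, the NK receptor NKp46, had no count in the NAC libraries and was at least 17.3-fold higher with genipin. The summed level of the 6 NK cell markers was 97.3 to 108.4 CPM with genipin and 10.3 to 11.1 CPM with NAC, mostly Fcer1g, and the NK marker Klra8 had at most 1 count in a library. The part of NK cells in these differences was not tested.

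Some genes typical of antigen-presenting cells and B cells were higher with NAC. The class II genes H2-Eb1, at 0.580, 0.893 and 0.547 CPM with genipin and 23.5, 22.7 and 19.1 CPM with NAC (5.03 ± 0.22), and H2-Ab1, at 4.72, 5.09 and 5.69 CPM with genipin and 48.9, 47.2 and 47.4 CPM with NAC (3.21 ± 0.09), were higher with NAC, and the invariant chain gene Cd74 differed by 0.79 ± 0.20. Of 9 dendritic cell markers 5 were tested and 4 were higher with NAC, with a summed level of 7.73 to 9.52 CPM with genipin and 54.1 to 57.2 CPM with NAC, most of it H2-Ab1, and Siglech, Cd209a and Clec9a had no count in any of the 6 libraries. The immunoglobulin gene Ighm was at 58.2, 62.9 and 57.4 CPM with genipin and 193, 190.3 and 182 CPM with NAC (1.67 ± 0.04) and the B cell receptor chain gene Cd79b at 1.31, 0.938 and 1.68 CPM with genipin and 11.04, 9.48 and 8.83 CPM with NAC (2.87 ± 0.20). Of 10 B cell markers 4 were tested and 3 were higher with NAC, while the joining chain gene Jchain was not called (0.83 ± 0.64). The 10 summed to 59.4 to 64.0 CPM with genipin and 192.3 to 206.4 CPM with NAC, while Ms4a1 and Pax5 had between 0 and 2 counts in each of these libraries. Whether other cells contributed to these values was not tested.

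Type I interferon response genes were higher with genipin. Of 34 tested 31 were higher with genipin, 15 by at least 2-fold, and the median was -0.88. Rtp4, a chaperone of receptor transport, was at 36.6, 40.1 and 38.4 CPM with genipin and 2.94, 3.51 and 3.20 CPM with NAC, beside 24.7, 24.8 and 24.2 CPM with vehicle (-3.57 ± 0.09). Mx1, an antiviral GTPase (ENSMUSG00000000386.15, chromosome 16, 97447035 to 97462907, mm10), was at 102, 102 and 98.8 CPM with genipin and 18.3, 20.7 and 19.9 CPM with NAC and 82.9, 86.8 and 82.2 CPM with vehicle (-2.36 ± 0.05). Irf7, the factor that amplifies interferon production, was at 76.4, 77.4 and 76.1 CPM with genipin and 17.6, 15.4 and 19.0 CPM with NAC and 75.2, 73.3 and 73.5 CPM with vehicle (-2.14 ± 0.06). In all 3 genes the NAC libraries stood far below both other groups, and the genipin libraries were at or above vehicle. The ubiquitin-like gene Isg15 (-2.30 ± 0.08) and the kinase gene Cmpk2 (-2.29 ± 0.09) belonged here as well. Stat2, which encodes a subunit of the interferon-activated complex, was the 1 member higher with NAC, at 43.4, 41.4 and 47.0 CPM with genipin and 69.6, 67.6 and 69.7 CPM with NAC (0.65 ± 0.05). The 2 members not called were Usp18, which fell with both compounds, and Ifit1bl1, which rose with both. Ifit1bl1 was called higher with genipin when vehicle replicate 3, NAC replicate 3 or replicate 1 of the group with both compounds was left out (adjusted p = 0.0436, 0.0153 and 0.0412 by edgeR with Benjamini-Hochberg adjustment).

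Adhesion and tissue residency genes were divided. Of 17 residency and TGF-beta genes 9 were higher with genipin and 7 with NAC. Itga1, the collagen-binding integrin CD49a, was at 18.9, 17.6 and 17.2 CPM with genipin and 1.56, 1.59 and 1.29 CPM with NAC (-3.59 ± 0.13). Itgae, the integrin CD103 that binds E-cadherin, was at 10.0, 12.9 and 13.0 CPM with genipin and 9.84, 9.41 and 9.98 CPM with NAC, far above the 0.845, 0.668 and 0.822 CPM of vehicle with both compounds, and its difference between them was small (-0.30 ± 0.11, adjusted p = 0.0153 by edgeR with Benjamini-Hochberg adjustment). Cd69, which holds T cells in tissue, was higher with NAC (1.24 ± 0.03), as were Smad3 (1.36 ± 0.08) and Smad7 (1.15 ± 0.10), while the TGF-beta receptor genes Tgfbr2 (-0.67 ± 0.03) and Tgfbr1 (-0.65 ± 0.07) were higher with genipin. The integrin chain genes Itgb1 (-1.01 ± 0.03), Itgb3 (-1.13 ± 0.03) and Itgal (-0.52 ± 0.03) were higher with genipin and Itga4 (0.57 ± 0.05), Itga6 (0.73 ± 0.07) and Itgam (1.35 ± 0.10) with NAC. The tetraspanin gene Cd81, at 1.58, 2.05 and 1.53 CPM with genipin and 25.4, 24.1 and 22.9 CPM with NAC (3.82 ± 0.14), was higher with NAC and its relative Cd63 with genipin (-1.91 ± 0.10).

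Immediate early genes, which follow receptor signalling within a short time, stood on both sides, 15 of 26 higher with NAC and 8 with genipin. Nr4a1, an orphan nuclear receptor induced by the T cell receptor, was at 6.92, 7.23 and 5.76 CPM with genipin and 61.3, 58.5 and 60.7 CPM with NAC (3.19 ± 0.09), and its relative Nr4a3 was slightly higher with genipin (-0.62 ± 0.07). Egr1 was at 287, 284 and 290.2 CPM with genipin and 886, 869 and 866 CPM with NAC (1.60 ± 0.03), whereas its relative Egr3 ran the other way, at 19.9, 19.1 and 21.5 CPM with genipin and 2.62, 2.19 and 2.59 CPM with NAC (-3.04 ± 0.11). The phosphatase gene Dusp5 (1.01 ± 0.03), Jun (1.11 ± 0.05) and Fos (1.49 ± 0.13) were higher with NAC, and Spry2, a brake on ERK signalling, was higher with genipin, at 39.2, 37.5 and 42.1 CPM with genipin and 4.74, 4.91 and 5.14 CPM with NAC (-3.0 ± 0.08). Members of 1 family thus differed in opposite directions.

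Targets of p53 were higher with NAC in 17 of 22 cases and with genipin in 3, with a median of 0.53. The death receptor gene Fas was at 3.44, 3.44 and 3.50 CPM with genipin and 25.5, 22.3 and 23.5 CPM with NAC (2.78 ± 0.09), Plk2 differed by 2.69 ± 0.07 and Btg2, an antiproliferative factor, by 1.57 ± 0.04. The pro-apoptotic genes Bbc3 (1.03 ± 0.06) and Bax (-0.44 ± 0.05) stood on opposite sides. The cell cycle inhibitor gene Cdkn1a was at 212, 213 and 219 CPM with genipin and 442, 445 and 427 CPM with NAC (1.03 ± 0.03), and Cdkn1b was higher with NAC too (1.15 ± 0.05). The inhibitors of CDK4 and CDK6 ran the other way: Cdkn2a, at 52.5, 54.7 and 60.2 CPM with genipin and 8.46, 6.76 and 7.01 CPM with NAC (-2.92 ± 0.08), whose locus also encodes ARF, and Cdkn2b (-1.99 ± 0.12) were higher with genipin.

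The mitochondrial genome and the nuclear genes of the respiratory chain did not differ by the same amount. Of 13 mitochondrially encoded genes 12 were higher with genipin, 7 by at least 2-fold, with a median of -1.04, and mt-Nd6 was not called (-0.28 ± 0.19). The cytochrome b gene mt-Cytb was at 2429, 2432 and 2337 CPM with genipin and 738, 756 and 763 CPM with NAC, with 1324, 1264 and 1304 CPM with vehicle (-1.67 ± 0.04). The cytochrome oxidase gene mt-Co1, at 9975, 9920.0 and 9652 CPM with genipin and 8856, 9038 and 9172 CPM with NAC, differed little (-0.13 ± 0.03), so the genes of this 1 genome were not shifted equally. Of 32 nuclear respiratory genes 16 were higher with genipin and 6 with NAC, with a median of -0.09. Among those higher with genipin was Cox5b of complex IV (-0.60 ± 0.05), and Uqcrc2 of complex III (0.49 ± 0.03) had the largest difference towards NAC. In the citric acid cycle, 12 of 19 genes were higher with NAC and 5 with genipin, with Idh2, the mitochondrial isocitrate dehydrogenase that makes NADPH, at 12.2, 12.2 and 11.9 CPM with genipin and 53.1, 52.6 and 51.5 CPM with NAC (2.12 ± 0.07). Pcx (1.00 ± 0.07) and Cs (0.45 ± 0.03), the pyruvate carboxylase and citrate synthase genes, were higher with NAC.

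Ucp2, the carrier that genipin is used to inhibit (ENSMUSG00000033685.13, chromosome 7, 100493337 to 100502020, mm10), was measured at 622, 618 and 632 CPM with genipin and 491, 484 and 477 CPM with NAC, beside 766, 757 and 736 CPM with vehicle. Both compounds lay below vehicle, NAC lower than genipin (-0.37 ± 0.03, adjusted p = 4.31e-09 by the edgeR quasi-likelihood test, Benjamini-Hochberg adjusted). With offsets for the deposited effective lengths in place of library size scaling, the adjusted p was 0.056 by edgeR with Benjamini-Hochberg adjustment. The part of effective length in that value was not tested, and a transcript level does not measure the carrier's activity. Of 10 tested genes for uncoupling and nucleotide carriers 6 were higher with genipin, among them the adenine nucleotide carrier gene Slc25a5 (-0.50 ± 0.02), and 2 with NAC.

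Genes of thiol metabolism and metal binding were divided. Of 32 genes of glutathione, thioredoxin and NRF2 targets 14 were higher with NAC and 11 with genipin, with a median of 0.08. Txnip, the thioredoxin-binding protein, was at 639, 663 and 650.4 CPM with genipin and 1541, 1522 and 1516 CPM with NAC (1.23 ± 0.02), and the mitochondrial enzymes Sod2 (0.84 ± 0.04) and Prdx5 (0.64 ± 0.04) were higher with NAC. Glrx, a glutaredoxin, was at 291, 283 and 297 CPM with genipin and 154, 150.2 and 152 CPM with NAC (-0.93 ± 0.03), and the sulfiredoxin gene Srxn1 (-1.16 ± 0.07), the peroxiredoxin gene Prdx1 (-0.68 ± 0.03) and the pentose phosphate genes Pgd (-0.68 ± 0.04) and G6pdx (-0.51 ± 0.05) were higher with genipin. The subunits of the first enzyme of glutathione synthesis stood near each other, with Gclm at -0.19 ± 0.06 and Gclc not called (0.10 ± 0.06), and the heme oxygenase gene Hmox1 was not called (0.07 ± 0.08, 95% interval -0.10 to 0.23).

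Of 17 metallothionein and zinc transport genes 11 were higher with genipin and 4 with NAC, with a median of -0.24. Mt2 was at 261, 269 and 269 CPM with genipin and 38.7, 38.5 and 35.5 CPM with NAC, beside 224, 243 and 238 CPM with vehicle (-2.83 ± 0.04), and Mt1 at 287, 298 and 319.9 CPM with genipin and 68.3, 66.2 and 61.4 CPM with NAC (-2.21 ± 0.06). In both metallothioneins NAC libraries stood far below vehicle and genipin libraries somewhat above it. The zinc exporter gene Slc30a1 (-0.85 ± 0.10) was higher with genipin and the importer gene Slc39a10 (0.70 ± 0.06) with NAC. For iron, the transferrin receptor gene Tfrc (-0.70 ± 0.03) was higher with genipin and the ferritin heavy chain gene Fth1 (0.46 ± 0.04) and the iron sensor gene Fbxl5 (1.12 ± 0.04) with NAC, 7 of 13 listed genes being higher with NAC and 5 with genipin.

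Chaperone genes were divided. Of 17 heat shock chaperone genes 8 were higher with NAC and 4 with genipin. The inducible cytosolic chaperone gene Hspa1a was at 0.155, 0.0893 and 0.182 CPM with genipin and 9.06, 10.7 and 8.30 CPM with NAC (5.96 ± 0.48) and its near copy Hspa1b differed by 3.22 ± 0.25, with reads that may be shared between them. Hspb1 had no count with genipin and was at least 11.9-fold higher with NAC. The constitutive chaperone genes Hspa8 (-0.03 ± 0.02) and Hsp90aa1 (-0.03 ± 0.04) were not called. Of 21 genes of the endoplasmic reticulum 10 were higher with genipin and 6 with NAC, with Calr (-0.73 ± 0.03), Sdf2l1 (-0.96 ± 0.06) and Creld2 (-0.80 ± 0.05) on the genipin side and Dnajb9 (0.95 ± 0.09), Herpud1 (0.56 ± 0.04) and Hyou1 (0.44 ± 0.03) on the NAC side. Of 12 arginine and polyamine genes 7 were higher with NAC and 3 with genipin, led by Nos2 (3.13 ± 0.21) and the argininosuccinate synthase gene Ass1 (1.24 ± 0.04).

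Cell cycle genes were called in about the share of all genes. Of 25 mitosis genes 9 were higher with genipin and 8 with NAC, with a median of -0.01. The proliferation marker gene Mki67 was at 765, 741 and 735 CPM with genipin and 459, 458 and 456 CPM with NAC, both above the 323, 315 and 315 CPM of vehicle (-0.71 ± 0.04), and the survivin gene Birc5 (-0.66 ± 0.04) and the mitotic kinesin gene Kif20a (-0.51 ± 0.03) were higher with genipin. Ube2c, a ubiquitin-conjugating enzyme of anaphase, was the largest towards NAC (0.43 ± 0.03). Replication genes leaned towards genipin, 16 of 25 against 2 with NAC, with a median of -0.33. Tyms, the thymidylate synthase, was at 75.9, 82.2 and 77.4 CPM with genipin and 24.5, 23.3 and 25.8 CPM with NAC (-1.68 ± 0.05), and the polymerase gene Pola1 (-1.05 ± 0.05), the thymidine kinase gene Tk1 (-0.88 ± 0.04) and the ribonucleotide reductase gene Rrm2 (-0.62 ± 0.03) were higher with genipin. Of 20 MYC and ribosome biogenesis genes 9 were higher with genipin and 6 with NAC, with Mycn (-0.85 ± 0.06) and the ribosome factor gene Rrp1b (0.78 ± 0.04) at the ends. In the BCL2 family the close copies Bcl2a1d (-1.77 ± 0.07) and Bcl2a1b (-1.25 ± 0.04) were higher with genipin.

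Genes that both compounds moved alike were those called in the same direction against vehicle for each compound and not called between the compounds. Against the same 3 vehicle libraries, genipin called 8312 genes (61.0%) and NAC called 8134 genes (59.7%). With so many genes called for each compound, many share a direction through the call rates alone, and that number was not computed. The shared vehicle libraries also tie the 2 changes together. The counts that follow are therefore not read as a shared response. In 2502 genes both calls had the same direction, and 1442 of these still differed between the compounds. The other 1060 genes (7.77% of those tested) moved alike, 536 up (3.93%) and 524 down (3.84%). There were 902 up and 293 down without normalization factors, and 42 up and 66 down when each change was tested against 1.5-fold. With offsets for effective lengths in place of library size scaling there were 169 up and 167 down. The changes of the 1060 genes were small, with a median of 0.27 for the smaller of the 2 changes on the log2 scale. Of these genes, 185 had changed at least 1.5-fold with both. A call that misses the threshold does not show that the levels were equal, so intervals are given. Small differences are favoured by the rule itself, which kept only genes not called between the compounds. The median absolute difference between the compounds was 0.06, the 95% interval reached a median of 0.13 to either side, and for 824 genes (77.7%), 427 up and 397 down, the whole interval lay between -0.32 and 0.32, the range taken here as the limit of likeness. The widest interval belonged to 2210418O10Rik, with a difference of -3.90 and an interval from -9.75 to 1.96, for which nothing can be said about likeness.

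Mitotic genes were the listed group with the most members moved alike upwards, 8 of 25. Kif11, the spindle kinesin (ENSMUSG00000012443.4, chromosome 19, 37376403 to 37421859, mm10), was at 201, 199 and 188 CPM with genipin and 194, 193 and 194 CPM with NAC, both above the 129, 123 and 123 CPM of vehicle. Its change from vehicle was 0.64 ± 0.04 with genipin and 0.63 ± 0.04 with NAC, and the interval of the difference between the compounds ran from -0.09 to 0.06. The kinase gene Bub1 of the spindle checkpoint (0.75 ± 0.06 with genipin and 0.66 ± 0.06 with NAC), the kinesin gene Kif23 (0.74 ± 0.05 and 0.79 ± 0.05) and the cyclin-dependent kinase gene Cdk1 (0.51 ± 0.04 and 0.48 ± 0.04) did likewise. Top2a, which untangles DNA, was at 658, 647 and 633 CPM with genipin and 662, 683 and 666 CPM with NAC, beside 426, 415 and 411 CPM with vehicle, but was called higher with NAC when replicate 1 of the group with both compounds was left out (adjusted p = 0.0332 by edgeR with Benjamini-Hochberg adjustment). Of the replication list, Mcm2, Mcm10, Cdc45 and E2f1 rose alike, although E2f1 was called higher with NAC without genipin replicate 3 (adjusted p = 0.0399 by edgeR with Benjamini-Hochberg adjustment). Of the nuclear respiratory genes 7 of 32 fell alike, among them the cytochrome c gene Cycs, from 171, 169 and 166 CPM with vehicle to 121, 127 and 118 CPM with genipin and 130.0, 129.7 and 127 CPM with NAC, and the complex II gene Sdhd (-0.25 ± 0.03 with genipin and -0.24 ± 0.03 with NAC). Cycs was called higher with NAC without replicate 1 of the group with both compounds (adjusted p = 0.0136 by edgeR with Benjamini-Hochberg adjustment).

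Among genes with a mean of at least 5 CPM, the largest shared rises were those of Hic1, a transcriptional repressor, from 1.44, 1.46 and 1.36 CPM with vehicle to 7.04, 7.501 and 7.37 CPM with genipin and 6.72, 5.86 and 6.78 CPM with NAC (2.36 ± 0.16 with genipin and 2.18 ± 0.16 with NAC), and of Samd3 (1.68 ± 0.14 and 1.83 ± 0.14). In Hic1 both compounds were far above vehicle, and its interval between them, -0.43 to 0.07, reached past that range. The semaphorin gene Sema4c (1.32 ± 0.11 and 1.17 ± 0.11), the costimulatory ligand gene Icosl (1.19 ± 0.13 and 1.07 ± 0.13) and the spindle gene Aspm (0.83 ± 0.04 and 0.88 ± 0.04) rose with both as well. The largest shared falls were those of Tmem40 (-2.20 ± 0.15 and -2.18 ± 0.15) and Megf11 (-1.75 ± 0.10 and -1.64 ± 0.10). The decoy receptor gene Il1r2 (-1.07 ± 0.12 and -1.22 ± 0.12), the leukotriene receptor gene Cysltr1 (-0.92 ± 0.11 and -0.92 ± 0.11) and the inhibitory receptor gene Milr1 (-0.90 ± 0.07 and -0.91 ± 0.07) fell with both.

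Of the 91 genes that changed at least 2-fold with both compounds, 39 up and 52 down, 5 also had an interval within that range. Changes of at least 2-fold were called for 9.91% of genes with NAC and 9.80% with genipin. Usp18, a protease that removes ISG15 and restrains interferon signalling, went from 28.0, 28.4 and 28.5 CPM with vehicle to 11.9, 11.7 and 12.1 CPM with genipin and 12.2, 11.6 and 10.4 CPM with NAC, and its interval was -0.22 to 0.09. Itga3, an integrin chain that binds laminin, went from 17.8, 19.2 and 16.6 CPM to 8.51, 8.75 and 8.97 CPM with genipin and 9.29, 8.69 and 8.68 CPM with NAC, with an interval of -0.16 to 0.20. In both genes the libraries of the compounds overlapped each other and lay below vehicle. The growth factor receptor gene Igf1r, at a mean of 1.41 CPM with vehicle, rose to 3.53 CPM with both, with an interval from -0.29 to 0.28. The junction gene Jcad fell from a mean of 16.3 CPM to 7.93 CPM with genipin and 7.80 CPM with NAC. Wls, which carries Wnt proteins to the cell surface, rose from 12.2, 10.3 and 11.9 CPM to 28.0, 26.3 and 23.6 CPM with genipin and 26.5, 30.1 and 28.1 CPM with NAC, and was called higher with NAC when genipin replicate 1 was left out (adjusted p = 0.0453 by edgeR with Benjamini-Hochberg adjustment).

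**Figure D4:**
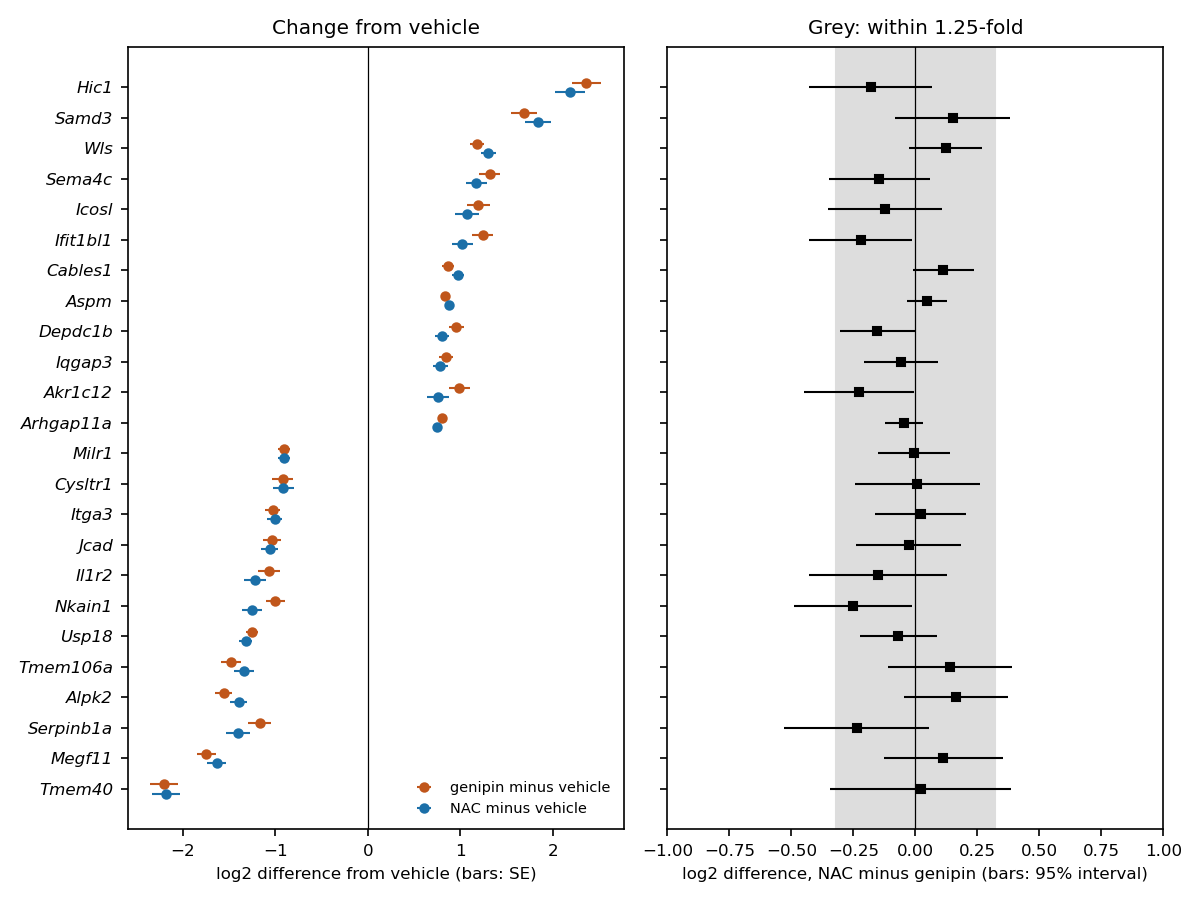
The left panel gives, for the 12 genes raised most and the 12 lowered most alike, the log2 difference from vehicle ± SE with genipin (orange) and NAC (blue), and the right panel their log2 difference, NAC minus genipin, with its 95% interval. In the right panel all 24 points lie inside the grey band of ± 0.32, which the choice of genes not called between the compounds favours. Intervals that reach outside the band leave larger differences possible.

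Of the other genes not called between the compounds, 2079 were called against vehicle for neither compound and 711 for 1 compound only. Among all 3850 genes not called, 1952 had a 95% interval between -0.32 and 0.32. In the listed pathways, Slc2a1 and Eno3 of glycolysis, Egln1 of the HIF targets, Srebf2 and Ggps1 of the sterol list and Prdx2, Gpx1 and Osgin1 of the antioxidant list were moved alike. Gpx1 was called higher with NAC without replicate 1 of the group with both compounds (adjusted p = 0.0101 by edgeR with Benjamini-Hochberg adjustment).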

How the data were processed

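RNA of 12 libraries was sequenced as paired reads from ribosome-depleted total RNA, per the labels' protocols. The deposited tables give RSEM expected counts and TPM per gene, with effective lengths, per the file headers. The submitters' processing notes name bcl2fastq, cutadapt 1.18, STAR 2.7.0f, RSEM 1.3.1 and mm10. Expected counts deposited by the authors were rounded to whole numbers, genes with low counts were removed (filterByExpr), and TMM factors were applied. The deposited TPM served only for levels per length. A quasi-likelihood model (edgeR 4.0.16 in R 4.3.3) with 1 term per group was estimated over all 12 libraries, so that 4 groups shared 1 spread with 8 residual degrees of freedom. CPM values use effective library sizes. SE and 95% intervals are Wald values from that model. Totals of 20838894 to 31098648 counts limit precision for genes of few counts.

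The model was tested on simulated counts for NAC against genipin over 13369 genes. It recovered 28, 36, 45 and 48 of 50 genes changed by 0.25, 0.5, 1 and 2 on the log2 scale. There were 9 false calls (5.42% of calls). Only 50 genes were changed at each size, whereas 71.8% of genes were called between NAC and genipin. The model's rate of false calls with so many genes changed was not tested.

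Members and gene lists were chosen with earlier results of these data known. Named genes are Ucp2, the 15 largest differences in each direction with a mean of at least 5 CPM and no overlap, up to 4 genes of each list by smallest p, and the 12 rises and 12 falls moved alike with the largest smaller change; other list members are named to describe their list and were chosen after their values were seen. Alternatives were DESeq2 1.42.0, limma-voom (limma 3.58.1), other normalizations, filters, thresholds and offsets, a replicate block and leaving out each library. Promoter windows came from RefSeq tables on GRCm38.p6. The library kit marks strand, but how strand was used in counting is not given in the sources used here.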

Additional observations from a re-analysis of the deposited data

How the results depend on the processing

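Under RLE size factors, DESeq2, limma-voom, other filters and an adjusted p under 0.01, the counts of genes called in each direction and moved alike stayed within 1.5 times those reported. With a 2-fold minimum 1600 genes were higher with NAC and 939 with genipin, and 39 up and 52 down moved alike. With glmTreat against a 1.5-fold change these were 1918, 1330, 42 and 66. With offsets for the deposited effective lengths they were 2976, 2798, 169 and 167, and Max, a partner of MYC, was reversed (0.27, adjusted p = 0.195 by edgeR, against -0.55). That setting left out the library sizes and TMM factors, so its changes cannot be put down to effective length. Without normalization factors 5488 genes were higher with NAC and 4298 with genipin, the all-gene median was 0.06, and 902 up and 293 down moved alike. Leaving out each library in turn gave 4759 to 5159 genes higher with NAC, 4580 to 4969 higher with genipin, 453 to 564 moved alike up and 455 to 549 down. A replicate block gave 4967 and 4774 called genes, and 530 up and 516 down moved alike. Whether the replicate numbers pair the libraries was not settled. Deviations of same-numbered libraries correlated at only -0.0786 to 0.0893, and a library was most like the others of its number in 5 of 9 cases. With 3 libraries per group such values cannot exclude pairing. Over all settings, values of the genes chosen by the naming rule stayed on their side of the threshold 5751 times. They gained a call 64 times, lost it 46 times and in 1 case, Max, changed sign after being called. Many of these genes had been chosen for a small p or a large difference, which favours a stable call. Other list members given with values in the text were not followed in this count. The causes were not tested. Genes of few counts are the least certain, as with the 3 genes given as lower bounds.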

Other observations

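The 3 libraries that received genipin and NAC together were placed between the compounds for the 1001 genes that differed at least 2-fold between them and had a mean of at least 5 CPM. On the mean of log2(CPM + 1), a position of 0 is the genipin mean and 1 the NAC mean, and the positions are a description with no test, since the same NAC and genipin libraries set the scale. The median position was 0.712 (quartiles 0.521 and 0.887), and 0.706 without replicate 1 of the group with both compounds. In 161 genes the combination lay at or beyond NAC, in 607 between but nearer to NAC, in 209 between but nearer to genipin and in 24 at or beyond genipin.

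Named genes took different places. The glycolysis gene Pgk1 (1.15), the growth factor gene Vegfa (1.17), the receptor gene Ctla4 (1.22) and the immediate early gene Egr1 (1.14) lay beyond the NAC mean. The homing receptor gene Ccr7 (0.835), the sterol gene Fdps (0.812), the inhibitor gene Cdkn2a (0.814) and the cytochrome b gene mt-Cytb (0.801) lay nearer to NAC. Gzma (0.739), Tcf7 (0.692), Mt2 (0.687) and Trib3 (0.654) stood near the median, and Cd160 (0.526) and Mx1 (0.514) near the middle. The asparagine synthetase gene Asns (0.417), the integrin gene Itga1 (0.406) and the chemokine gene Ccl5 (0.369) lay nearer to genipin. So did the granzyme genes Gzmb (0.347), Gzmc (0.487), Gzmd (0.215), Gzme (0.324) and Gzmg (0.205), unlike Gzma, while Gzmf (0.55) lay nearer to NAC. Perforin (Prf1) lay at the genipin mean. The receptor gene Cxcr6 (-0.07) and the osteopontin gene Spp1 (-0.625) lay beyond the genipin mean.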
